A study of Homo sapiens with 10 samples.

Results

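The genes described here are NEAT1 and MALAT1, which give rise to 2 abundant long noncoding RNAs of the nucleus, and SFPQ, NONO and PSPC1, which encode the core proteins of paraspeckles. They were taken from the count table by gene symbol, 1 row for each, and are 5 of its 28380 genes. All 5 passed the filter on low counts, which 13378 genes passed. RNA was from RPE-1, an established line of telomerase-immortalized human retinal pigment epithelial cells, in 2 groups of 5 libraries. The DMSO group received the vehicle and the SFN group received 25 µM sulforaphane (SFN), an isothiocyanate of cruciferous vegetables, both for 4 h and with 50000 cells per replicate. Nothing in the labels says whether replicates were separate cultures on separate days, so the p-values measure the spread between these libraries, which may be technical.

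Paraspeckles are nuclear bodies built on the long transcript of NEAT1, which is bound along its length by SFPQ, NONO and PSPC1. These 3 proteins form one family (DBHS proteins), pair with each other, and also act in transcription, splicing and DNA repair. MALAT1 lies close to NEAT1 on the chromosome, and its RNA collects in nuclear speckles, the neighbouring bodies that hold splicing factors. NEAT1 has a short transcript with a poly(A) tail and a long one without. The 3′ ends of the long transcript and of MALAT1 are instead cut by RNase P and protected by a triple helix.

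The libraries were made by 3′ tag sequencing (QuantSeq), in which an oligo(dT) primer starts at a stretch of A. The gene row for NEAT1 (ENSG00000245532) covers chr11:65422774-65445540 on the plus strand of GRCh38, and that for MALAT1 (ENSG00000251562) covers chr11:65497640-65508073 on the same strand. Of 9 NEAT1 transcripts in GENCODE 44, 8 end by position 65426513 and 1 runs to 65445540, so 1 gene row covers both forms. The stretches below, from the plus strand, show where the letters of these RNAs offer a poly(A) signal or a run of A, in capitals. They are the surroundings of the short NEAT1 end (chr11:65426454-65426533, with the signal AATAAA) and of the longest run of A in MALAT1 (chr11:65506049-65506127).
NEAT1 short transcript end: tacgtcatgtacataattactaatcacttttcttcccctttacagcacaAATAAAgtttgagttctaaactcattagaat
MALAT1 longest A run: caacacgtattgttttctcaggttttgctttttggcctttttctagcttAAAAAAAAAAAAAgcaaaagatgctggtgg
Runs of at least 10 A were counted on the transcribed strand. There were 0 in the 3740 bases up to the end of the short NEAT1 transcripts and 5 in the other 19027 bases. MALAT1 held 1, of 13 bases. For comparison, AATAAA lies in the last 80 bases of 29.6% of 251236 GENCODE transcripts, and a run of at least 10 A in those of 1.65%. The runs above were counted over far longer stretches, so the 1.65% does not say whether they are unusual. The counts per gene do not say at which signal or run of A reads began.

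The total count of a library lay between 15689294 and 20666692 in the DMSO group and between 12375860 and 17308706 in the SFN group, with medians of 16699666 and 14408929. The 5 genes held between 1115 and 137011 counts per library, for which counting error alone is 2.99% to 0.270%. Values below are CPM (counts of a gene scaled to a common library size) after TMM scaling of the libraries. The 2 groups were compared by the quasi-likelihood test of edgeR, with p-values adjusted over all 13378 genes after Benjamini and Hochberg. A gene is called at an adjusted p under 0.05. Of the markers fixed for retinal pigment epithelium, 12 of 13 were in the table and 6 passed the filter (BEST1, PMEL, OTX2, MITF, KRT8 and KRT18), while RPE65, RLBP1, LRAT, TYRP1, TTR and SERPINF1 had at most 12 counts in any library. Of the 6, the transcription factor genes MITF (log2 fold change -1.12) and OTX2 (-0.64) were called lower in SFN, and 0 were called higher. The other 4 had positive log2 fold changes and were not called. The share called was 33.3%, beside 23% of all genes tested (13.9% lower), and the median log2 fold change of the 6 was 0.18. Of 7 markers of blood and endothelium, 4 were in the table and 0 passed. DMSO replicate 1 stood apart from the other libraries. Its length slope, the change in log2 CPM relative to the mean of all libraries for each doubling of transcript length, was -0.271, against 0.0872 to 0.148 in the other DMSO libraries and -0.183 (replicate 2) to 0.109 (replicate 5) in SFN. Results are therefore also given without DMSO replicate 1, and without both it and SFN replicate 2.

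NEAT1 fell after SFN, SFPQ rose, and MALAT1, NONO and PSPC1 were not called. Of the 5 genes, 1 was called higher and 1 lower, where 23% of all genes tested were called, 9.07% higher and 13.9% lower. In the same 2 genes the groups did not overlap, as in 19.9% of all genes tested. Only NEAT1 also had an absolute log2 fold change above 1, as had 8.69% of all genes tested. The median log2 fold change of all genes tested was -0.028.

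The gene row of NEAT1 covers the short transcript and the long one that scaffolds paraspeckles. The counts do not tell these forms apart, and whether they include the long one, which has no poly(A) tail, was not tested. NEAT1 stood at 436, 364, 387, 431 and 404 CPM in DMSO replicates 1 to 5. In SFN replicates 1 to 5 it stood at 66.5, 151, 119, 136 and 89.6 CPM. Every SFN library was far below every DMSO library, and the highest SFN value, in replicate 2, was less than the lowest DMSO value, also in replicate 2. The log2 fold change was -1.85 (standard error 0.20, 95% interval -2.29 to -1.41, adjusted p = 5.7e-05), a 3.60-fold lower level. Fewer cells with the RNA and less RNA per cell cannot be told apart in such bulk samples. Among the 2222 genes with a mean of at least 100 CPM, 97 were called lower, and NEAT1 had the third largest decrease. The decrease was called in all 21 alternatives of the fit, with log2 fold changes between -2.00 and -1.71, and was -1.83 without DMSO replicate 1 and -1.95 without both doubted libraries.

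The SFN libraries differed among themselves in NEAT1 more than the DMSO libraries did. The coefficient of variation was 7.50% in DMSO and 30.5% in SFN, where the medians over the genes of at least 100 CPM were 20.2% and 10.9%. NEAT1 was thus among the steadier of these genes in DMSO (percentile 12.6) and among the most variable in SFN (percentile 97.3). The DMSO figures include replicate 1. In that library, 55 of these 2222 genes lay more than 2 above the other DMSO libraries on the log2 scale, and NEAT1 lay 0.14 above them. Percentiles without that library were not computed. Replicates 1 and 5 were the lowest SFN libraries and replicate 2 the highest. These values rest on 6823 to 7979 NEAT1 counts per library in DMSO and 1115 to 2013 in SFN.

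**Figure D1:**
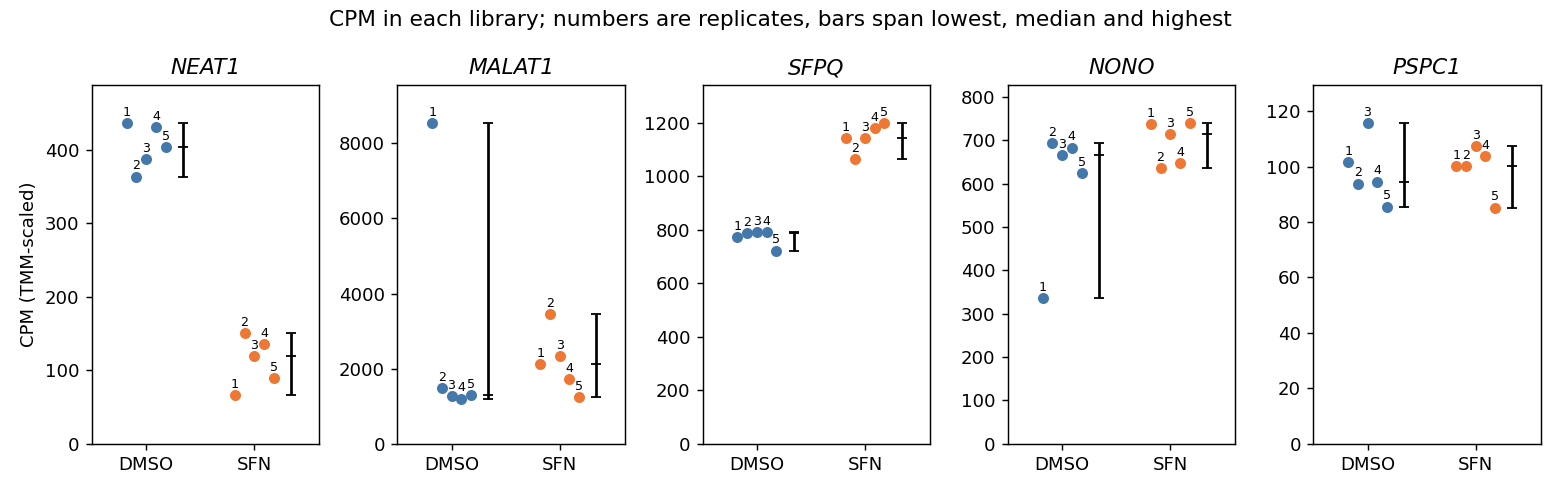
CPM of the 5 genes in each DMSO (blue) and SFN (orange) library, with the replicate number at each point and a black bar from the lowest over the median to the highest value. NEAT1 in SFN (66.5 to 151 CPM) lies below all DMSO libraries and SFPQ in SFN (1064 to 1197 CPM) above them, while DMSO replicate 1 stands apart in MALAT1 and NONO.

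MALAT1, the RNA of nuclear speckles, stood at 8532, 1486, 1267, 1202 and 1288 CPM in DMSO replicates 1 to 5. In SFN it stood at 2109, 3461, 2342, 1716 and 1235 CPM. DMSO replicate 1 was the highest of all 10 libraries, 6.68-fold above the median of the other DMSO libraries, whereas SFN replicate 5 lay among those others. With all libraries the log2 fold change was -0.34 (standard error 0.56, 95% interval -1.56 to 0.88, adjusted p = 0.72). The direction of this value was set by DMSO replicate 1. Without it the log2 fold change of MALAT1 was 0.72 (standard error 0.21, adjusted p = 0.013), and without both DMSO replicate 1 and SFN replicate 2 it was 0.50 (adjusted p = 0.010). With limma-voom and quality weights, which lower the influence of libraries that stand apart, it was 0.62 (adjusted p = 8.3e-04). These 3 fits called 46.1%, 47.6% and 59.2% of all genes tested, beside 23% in the main fit.

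The level of MALAT1 followed the length slope of the libraries. Ordered from the lowest slope, the first 6 of 10 libraries (DMSO 1, SFN 2, SFN 3, SFN 1, SFN 4 and DMSO 2) were also the 6 with the most MALAT1, in the same order. Their length slopes were -0.271, -0.183, -0.057, -0.046, -0.035 and 0.0872, and their MALAT1 levels 8532, 3461, 2342, 2109, 1716 and 1486 CPM. The other 4 libraries, SFN 5 and DMSO 3 to 5, had slopes of 0.109 to 0.148 and MALAT1 levels of 1202 to 1288 CPM. With the slope as a covariate, an alternative chosen after seeing the data, the log2 fold change of MALAT1 was -0.43 (standard error 0.089, adjusted p = 5.2e-04). That fit called 50.3% of all genes tested. Slope and treatment are not independent in these libraries, since 4 SFN libraries had a lower slope than DMSO replicates 2 to 5. MALAT1 was therefore called higher, lower or not at all depending on how DMSO replicate 1 and the slope entered the fit, and no direction is given for it here.

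The genes whose profile over the 10 libraries was most like that of MALAT1 were TOMM7, a subunit of the mitochondrial import pore, the ribosomal protein genes RPS27A and RPL34, ZCRB1, a protein of the minor spliceosome, and COMMD6. Their root mean square difference from MALAT1 in centred log2 CPM was 0.112 to 0.153, where the median over 8650 genes of at least 10 CPM was 0.912. Their canonical transcripts are 434 to 1808 bases long. That of MALAT1, at 10434 bases, is longer than those of 96.4% of the genes tested. In DMSO replicate 1, 55 of the 2222 genes of at least 100 CPM lay more than 2 above the other DMSO libraries on the log2 scale, and only RPLP1 lay further above them than MALAT1. The part of library composition in the MALAT1 values was not tested beyond these fits. GENCODE places 2 antisense genes on MALAT1, TALAM1 and ENSG00000270117, neither of which was a row of the table used here, and the sources used here do not say whether counting used strand.

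**Figure D2:**
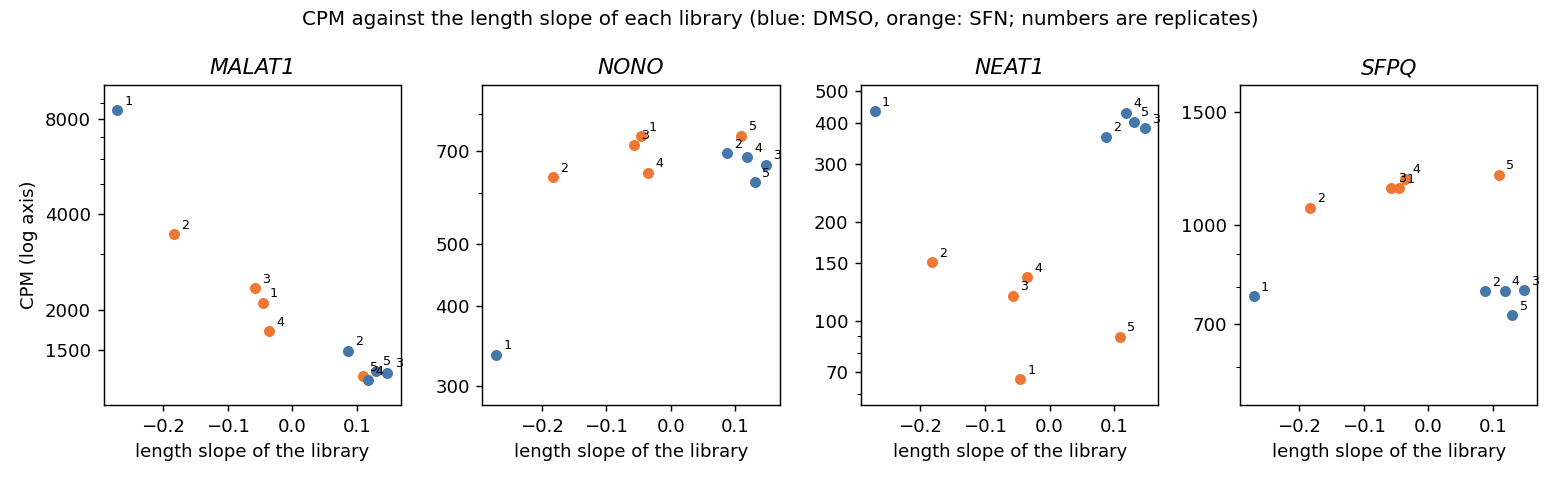
CPM of 4 genes (log axis) against the length slope of each library, with DMSO in blue, SFN in orange and replicate numbers beside the points. MALAT1 goes down as the slope goes up, across both groups, from 8532 CPM at -0.271 to 1486 CPM or less at slopes above 0, while in NEAT1 and SFPQ the groups do not overlap.

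SFPQ, the largest of the DBHS proteins and needed for paraspeckles to form, stood at 773, 788, 790, 789 and 722 CPM in DMSO replicates 1 to 5. In SFN it stood at 1142, 1064, 1143, 1180 and 1197 CPM. All SFN libraries were above all DMSO libraries, DMSO replicate 1 included, and the spread within either group was small (coefficients of variation of 3.77% and 4.48%). The log2 fold change was 0.57 (standard error 0.092, 95% interval 0.37 to 0.77, adjusted p = 9.1e-04), a 1.48-fold higher level. It was called in all 21 alternatives, with values between 0.42 and 0.60, and was 0.56 without DMSO replicate 1. Among the 298 genes of at least 100 CPM called higher, of 2222 genes of that abundance, it ranked 99 by size. An increase of this size was therefore common among the abundant genes called higher. SFPQ (ENSG00000116560) lies at chr1:35176378-35193446 on the minus strand and overlaps no other annotated gene.

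NONO, the DBHS protein that pairs with SFPQ and PSPC1, stood at 336, 694, 665, 683 and 624 CPM in DMSO replicates 1 to 5 and at 737, 637, 715, 647 and 739 CPM in SFN. DMSO replicate 1 was the lowest library, at 0.498 of the median of the other DMSO libraries, and those others overlapped with SFN. The log2 fold change of NONO was 0.21 (standard error 0.18, 95% interval -0.18 to 0.60, adjusted p = 0.46), and it was 0.055 without DMSO replicate 1 and 0.090 without both doubted libraries. With the length slope as a covariate, added after seeing the data, it was 0.43 (adjusted p = 5.4e-04). That fit called 50.3% of all genes tested. NONO (ENSG00000147140) lies at chrX:71254814-71301522 on the plus strand, where its first bases overlap ZMYM3 on the other strand.

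PSPC1, the third DBHS protein, stood at 102, 93.9, 116, 94.6 and 85.5 CPM in DMSO replicates 1 to 5 and at 100, 100, 108, 104 and 85.2 CPM in SFN. The groups overlapped almost fully, and here DMSO replicate 1 was not apart. The log2 fold change was 0.017 (standard error 0.11, adjusted p = 0.94). Its 95% interval, from -0.22 to 0.25, lies within smaller changes than the estimates for NEAT1 and SFPQ. PSPC1 (ENSG00000121390) lies at chr13:19674752-19783019 on the minus strand. Its 3′ end overlaps the antisense gene PSPC1-AS2, whose reads could not be told apart from its own if strand was not used.

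**Figure D3:**
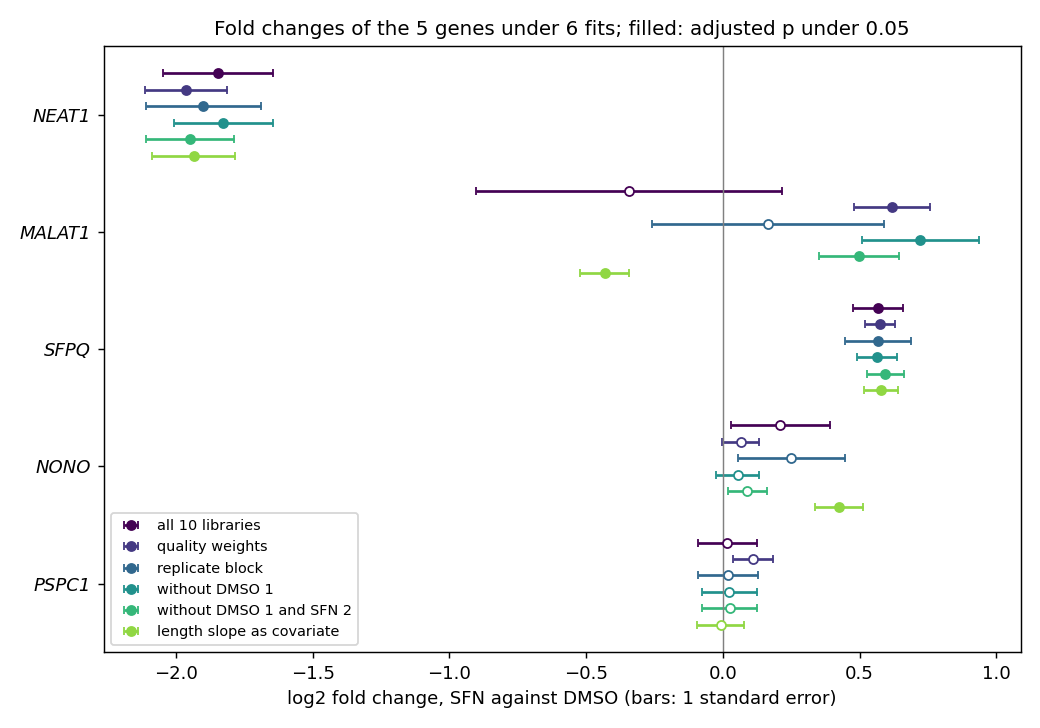
Log2 fold change of SFN against DMSO (x axis) for the 5 genes under 6 fits, with bars of 1 standard error and filled points where the adjusted p was under 0.05. NEAT1 and SFPQ keep their place in every fit shown, MALAT1 moves from -0.43 to 0.72, and NONO passes the threshold only with the length slope as a covariate.

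Ratios between the genes do not depend on how a library is scaled, and all 10 pairs were compared by a two-sided exact permutation test over the libraries, with p-values adjusted over the 10 pairs. The log2 ratio of NEAT1 to SFPQ went from -0.94 ± 0.13 (SD, n = 5) in DMSO to -3.41 ± 0.51 (SD, n = 5) in SFN, a 5.55-fold lower ratio (exact permutation p = 0.0079, adjusted p = 0.020). This was the widest shift among the 10 pairs, and 0.0079 is the smallest p that 5 against 5 libraries can give. NEAT1 to NONO was 4.47-fold lower and NEAT1 to PSPC1 3.79-fold lower, with the same exact p-values and no overlap between the groups.

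Within the protein genes, SFPQ to PSPC1 went from 2.98 ± 0.13 to 3.53 ± 0.17 (SD, n = 5 each) on the log2 scale, a 1.46-fold higher ratio without overlap (exact permutation p = 0.0079, adjusted p = 0.020). SFPQ to NONO differed by 0.31 (exact permutation p = 0.19, adjusted p = 0.32), and by 0.51 without DMSO replicate 1 (adjusted p = 0.013 by the same exact test). NONO to PSPC1 differed by 0.24 (adjusted p = 0.59 by exact permutation), and by 0.025 without DMSO replicate 1. The mRNA of SFPQ therefore rose relative to that of PSPC1, and passed the threshold relative to that of NONO only without DMSO replicate 1, alone or together with SFN replicate 2.

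The ratio of NEAT1 to MALAT1 was 4.03-fold lower in SFN (exact permutation p = 0.024, adjusted p = 0.048), with groups that overlapped because of DMSO replicate 1. Without that library the difference on the log2 scale was -2.53 (adjusted p = 0.013 by exact permutation), and the adjusted p was 0.063 when any one of DMSO replicates 2 to 5 or of SFN replicates 1 to 3 was left out. Both RNAs come from the same stretch of chromosome 11, 52.1 kb apart. MALAT1 to SFPQ, to NONO and to PSPC1 differed by -0.46, -0.15 and 0.089 on the log2 scale, and their adjusted p-values were 0.75 or more by exact permutation. Without DMSO replicate 1 these differences were 0.082, 0.59 and 0.62, with adjusted p-values of 0.85, 0.11 and 0.079 by the same exact test.

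Of 34 other genes whose proteins have been placed in paraspeckles, 33 passed the low-count filter, 1 was called higher and 6 lower, and 26 were not called. The share called, 21.2%, was near the 23% of all genes tested. The median log2 fold change of the 33 was -0.080, beside -0.028 over all genes tested. AHDC1, an AT-hook protein, fell from 25.2 ± 1.83 to 6.33 ± 1.29 CPM (SD, n = 5 each), and its log2 fold change of -1.99 was close to that of NEAT1 (standard error 0.15, adjusted p = 3.9e-06). RBM12, an RNA-binding protein, fell from 129 ± 14.9 to 64.9 ± 8.84 CPM (log2 fold change -0.99). FIGN (-0.90) and RBM4B (-0.86) followed. ZC3H6, a zinc finger protein, rose from 10.1 ± 5.69 to 24.5 ± 2.54 CPM (1.29 on the log2 scale, standard error 0.28).

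Several of the best known paraspeckle proteins beside the DBHS family were not called. TAF15 and EWSR1, RNA-binding proteins that also act in transcription, had log2 fold changes of -0.15 and 0.082 and were not called. RBM14, needed for paraspeckles to form, fell from 23.1 ± 2.74 to 17.01 ± 1.68 CPM (SD, n = 5 each) with a log2 fold change of -0.44 (adjusted p = 0.019 by edgeR), a call that 5 of 21 alternatives did not make. HNRNPH1, which binds G-rich RNA, fell from 939 ± 54.0 to 700 ± 29.7 CPM with a log2 fold change of -0.42 (adjusted p = 0.0067). HNRNPK, which takes part in making the long NEAT1 transcript, had a log2 fold change of 0.24 (adjusted p = 0.31). The factors CPSF6 and NUDT21, which act at the poly(A) site of the short transcript, had 0.055 and 0.087 and were not called. Without DMSO replicate 1, 13 genes of this list were called, 4 of them higher, and without both doubted libraries 14 were, 5 of them higher, in fits that called 46.1% and 47.6% of all genes tested. MATR3 stands on more than 1 row of the table under the same symbol, so its value is uncertain.

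**Figure D4:**
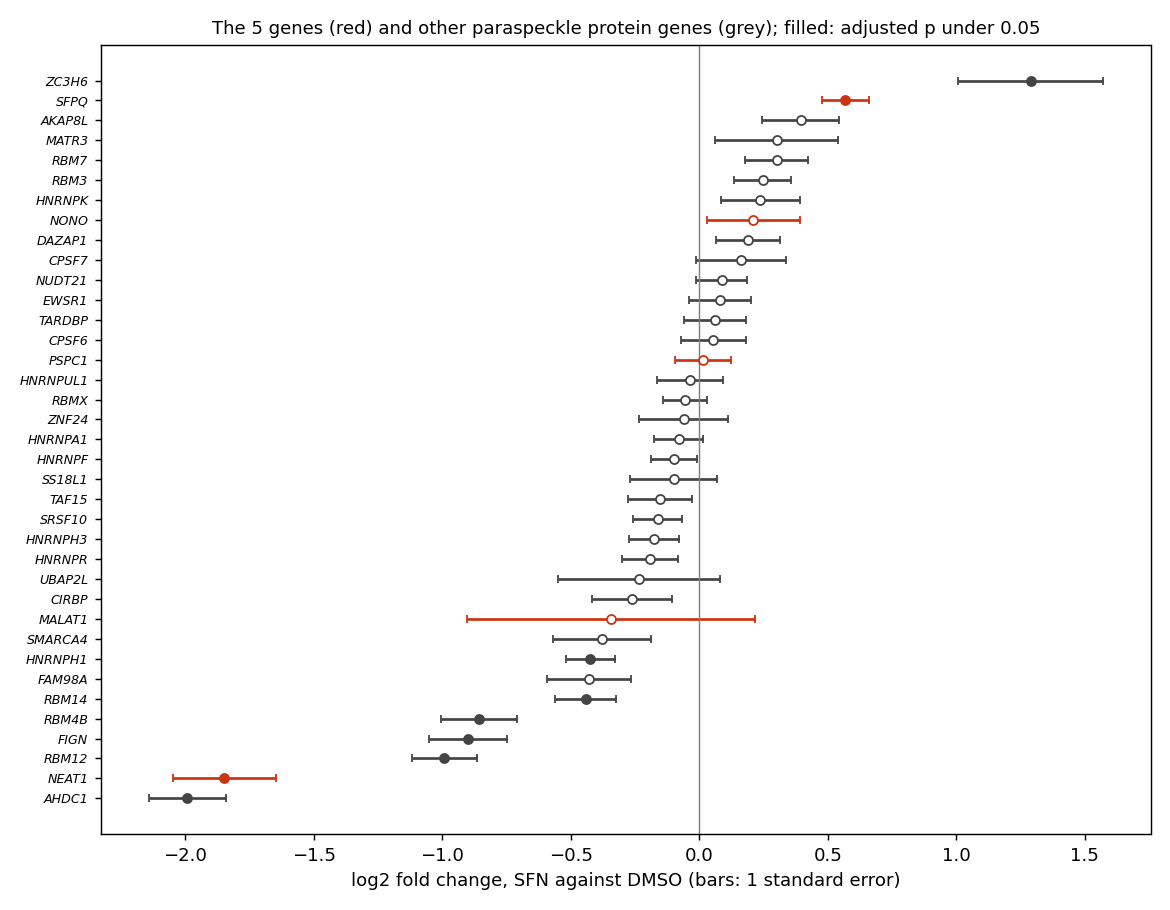
Log2 fold change of SFN against DMSO (x axis) for the 5 genes in red and other paraspeckle protein genes in grey, with bars of 1 standard error and filled points where the adjusted p was under 0.05. NEAT1 (-1.85) and AHDC1 (-1.99) lie furthest to the left, ZC3H6 (1.29) and SFPQ (0.57) furthest to the right among called genes, and most others lie near 0.

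Of 15 genes for proteins of nuclear speckles, where MALAT1 RNA resides, 1 was called higher, 2 lower and 12 not called, with a median log2 fold change of -0.13. The share called, 20%, was near the 23% over all genes. PNN, a splicing-associated protein, fell from 416 ± 56.4 to 259 ± 17.1 CPM (SD, n = 5 each), or by 0.68 on the log2 scale (standard error 0.11, adjusted p = 0.0011). ACIN1 (log2 fold change -0.34, adjusted p = 0.046) and SF3B1 (log2 fold change 0.38, adjusted p = 0.046) lay close to the threshold by the same test and were not called in 10 and 13 of 21 alternatives. SON and SRRM2, the scaffold proteins of speckles, had log2 fold changes of 0.096 and -0.57 and were not called. Without DMSO replicate 1, 6 of the 15 genes were called, 2 of them higher, and without both doubted libraries 7 were, 2 of them higher, beside 46.1% and 47.6% of all genes in those fits. The list median was 0.021 without DMSO replicate 1. Leaving out DMSO replicate 2, 3 or 4, or SFN replicate 1, 3 or 4, left 1 gene called. These fits called 17.5% to 18.2% of all genes tested.

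ELAC2 is the RNase Z that trims the small tRNA-like RNA of MALAT1. Of the 11 genes for the protein subunits of RNase P and for ELAC2, 1 was called higher, 4 lower and 6 not called. The share called was 45.5%, beside 23% of all genes tested. The median log2 fold change of the 11 was -0.40. RPP25 fell from 6.03 ± 1.47 to 2.38 ± 0.36 CPM (SD, n = 5 each), or by 1.34 on the log2 scale (standard error 0.20, adjusted p = 5.5e-04). POP7 (-0.81), POP1 (-0.46) and ELAC2 (-0.40) were also lower, whereas RPP14 rose from 23.3 ± 3.22 to 35.7 ± 3.18 CPM (0.62 on the log2 scale, adjusted p = 0.0029). RPP30 and POP4 had positive values (0.29 and 0.31) that were not called. RPP14 was called in all 21 alternatives, RPP25 in the 20 in which it was tested, POP7 in 18, POP1 in 14 and ELAC2 in 19. Without DMSO replicate 1, 8 genes were called, 3 of them higher, without both doubted libraries 9, 3 of them higher, and without SFN replicate 1 there were 3, 1 of them higher. Those fits called 46.1%, 47.6% and 17.7% of all genes tested.

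The genes around NEAT1 and MALAT1 were called about as often as all genes tested (20% beside 23%). Of 13 listed neighbours in the table, 10 passed the filter, 1 was called higher, 1 lower and 8 not called, with a median log2 fold change of -0.053. FRMD8, which ends -9.25 kb from the start of NEAT1, fell from 11.8 ± 1.75 to 7.56 ± 1.38 CPM (SD, n = 5 each), or by 0.64 on the log2 scale (standard error 0.16, adjusted p = 0.013). DPF2, a chromatin remodelling subunit that starts at -88.9 kb, rose from 21.6 ± 3.21 to 29.5 ± 2.61 CPM (0.45 on the log2 scale, standard error 0.13, adjusted p = 0.023), a call that 5 of 21 alternatives did not make. POLA2, a subunit of DNA polymerase alpha at -161 kb, had a value of -0.91 with a standard error of 0.42 and was not called. Leaving out DMSO replicate 4, SFN replicate 3 or SFN replicate 5 left 1 neighbour called, FRMD8. These fits called 18.2%, 17.5% and 21.6% of all genes tested.

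On the other side of MALAT1, LTBP3, which binds latent TGF-beta, had a log2 fold change of 0.029. Further away, SSSCA1, FAM89B, EHBP1L1, MAP3K11 and PCNX3 had values of -0.18, 0.10, 0.045, -0.14 and -0.15. None of these 6 genes was called, and their adjusted p-values ranged from 0.46 to 0.89. SSSCA1 and FAM89B overlap on the same strand, so their separate values are uncertain.

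**Figure D5:**
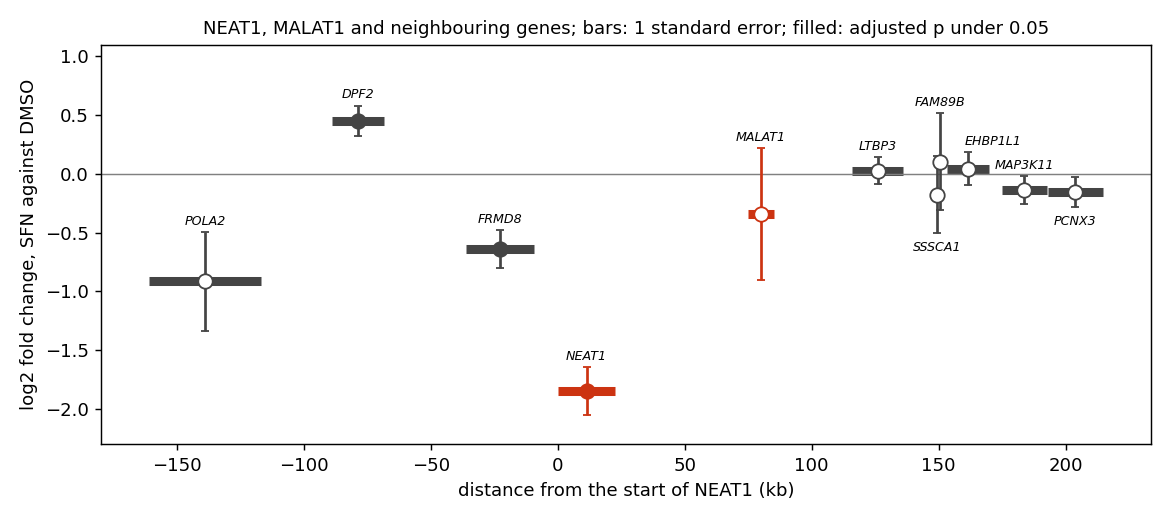
Log2 fold change of SFN against DMSO (y axis) for NEAT1 and MALAT1 in red and neighbouring genes in grey, at their distance in kb from the start of NEAT1, with horizontal bars spanning each gene, vertical bars of 1 standard error and filled points where the adjusted p was under 0.05. NEAT1 lies at -1.85, FRMD8 at -0.64 and DPF2 at 0.45, and the genes beyond MALAT1 lie near 0.

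The genes whose profile over the 10 libraries was most like that of NEAT1 were GEMIN4, a protein of the complex that assembles spliceosomal RNPs, the homeobox gene IRX3, HEXIM1, the inhibitor of P-TEFb, the transcription factor gene SOX11, and the antisense RNA gene TRHDE-AS1. Their root mean square difference from NEAT1 in centred log2 CPM was 0.254 to 0.316, where the median over 8650 genes was 1.07. All 5 were called lower, with log2 fold changes of -1.73, -2.05, -2.02, -1.57 and -1.97. They were chosen for this likeness, so their change is a description and no test of it.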

How the data were processed

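RNA from 10 RPE-1 libraries was measured, 5 with DMSO and 5 with SFN. The values the authors deposited are unnormalized counts of each Ensembl gene in each library. The study's methods name QuantSeq libraries and the Bluebee pipeline, the labels a standard Illumina preparation. The submitters' processing notes list FastQC, STAR, featureCounts, edgeR and hg38, and the versions, the use of strand and of molecular identifiers are not given in the sources used here. Since 3′ tags are counted, the position of a poly(A) tail or a run of A affects what a gene row holds.

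Genes were filtered with filterByExpr, scaled by TMM and compared with glmQLFit and glmQLFTest in edgeR 4.0.16 (R 4.3.3). Standard errors were derived from the log2 fold change and the F statistic of its test. Ratios used exact permutation (Python 3.11.15). Positions and lengths came from GENCODE 44, which held 28145 of 28380 identifiers. For a symbol on several rows, the row with most counts was used. All pairs of replicates differed by more than sampling noise.

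The genes and lists were chosen with earlier results of these data known. From each list the called genes were named, up to 4 per direction, all neighbours tested, and the genes nearest in profile to each of the 5 genes. RBM14, HNRNPH1, MATR3, TAF15, EWSR1, HNRNPK, CPSF6, NUDT21, SON, SRRM2, RPP30 and POP4 were named beyond this rule, after their values were seen. Alternatives were other scalings and filters, DESeq2 1.42.0, limma-voom 3.58.1, a replicate block and leaving out replicates. A covariate for the length slope, and leaving out 2 libraries together, were added after seeing the data. Programs were tested on simulated data. Some items of the lists are not reported here by name. The dream model of the study was not run, since its repeated measures are not defined in the sources used here.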

Additional observations from a re-analysis of the deposited data

Results flagged for a closer look

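Each measure was examined in each group of 5 libraries for a library whose gap to the next, as a share of the range of the group, was above Dixon's 95% limit for 5 samples. Of 34 such groups 11 were flagged, 9 of them by DMSO replicate 1, where chance flags about 1 in 20. The measures share counts, so the flags are not independent.

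In DMSO replicate 1 the share was 0.961 for MALAT1 CPM (8532 against 1202 to 1486 in the others), 0.806 for NONO CPM (336 against 624 to 694) and 0.855 for the length slope. Among log2 ratios of counts it was 0.926 for MALAT1 to NONO, 0.892 for MALAT1 to SFPQ, 0.819 for MALAT1 to PSPC1, 0.804 for NEAT1 to MALAT1, 0.768 for NEAT1 to NONO and 0.936 for SFPQ to NONO. SFPQ CPM in DMSO replicate 5 (722, share 0.759) was the lowest of its group, still far from the SFN libraries. The ratio of SFPQ to PSPC1 in SFN replicate 5 (log2 ratio 3.81, share 0.744) was the highest of its group.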

How the results depend on the processing

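NEAT1 and SFPQ kept their direction and their call in all 21 alternatives. For MALAT1 the log2 fold change was 0.62 with quality weights, 0.16 with the replicate block, 0.50 without both DMSO replicate 1 and SFN replicate 2, and -0.43 and past the threshold with the length slope as a covariate, and leaving out 1 replicate gave -0.56 to 0.72. NONO was 0.43 and past the threshold with the slope, and between 0.055 and 0.27 when 1 replicate was left out. PSPC1 was never called, and was -0.017 with upper quartile scaling, -0.068 by library size only, -0.038 with quantile normalisation, -0.0013 over genes of at least 5 CPM, -0.0078 with the slope, and -0.031 to 0.081 when 1 replicate was left out.

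Genes called numbered 7915 with quality weights, 6379 without both libraries, 6723 with the slope, 1163 with an absolute log2 fold change above 1, and 2383 to 6251 when 1 replicate was left out. The share of calls that were higher was 39.5%, and 27.5% by library size only, which moved the median of all genes to -0.11. Calls in the lists, in the order quality weights, both libraries left out, slope, and 1 replicate left out, were 19, 14, 19 and 6 to 13 for paraspeckle proteins, 8, 7, 11 and 1 to 6 for nuclear speckle proteins, 10, 9, 10 and 3 to 6 for other lncRNAs, and 9, 9, 8 and 3 to 8 for RNase P. In the same order, these fits called 59.2%, 47.6%, 50.3% and 17.5% to 46.1% of all genes tested. Without a low-count filter 1 speckle gene was called, beside 10% of all genes. Other lncRNAs had 5 calls with upper quartile scaling, 6 by library size only, 6 by DESeq2 and 5 with quantile normalisation. Those fits called 23.1%, 22.3%, 28.1% and 21.3% of all genes tested. Neighbours had 1 by library size only and 1 to 2 when 1 replicate was left out. Where no value shows it, the cause was not tested.

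Same-numbered libraries did not as a rule deviate together (correlations -0.27 to 0.48, and 1 of 5 SFN libraries was most like its own number). Libraries paired by design need not deviate together, so this cannot decide whether the numbers mark pairs. They were not treated as pairs in the main fit. With the replicate block 2441 genes (18.2% of all genes tested) were called in all, 3 of them in the RNase P list. Under the block, exact sign flips of the 5 differences gave the same ratios (-2.01 for NEAT1 to MALAT1, -2.47 to SFPQ, -2.16 to NONO, -1.92 to PSPC1, and 0.55 for SFPQ to PSPC1), each with an adjusted p of 0.125 by a test that cannot go below 0.0625 unadjusted. When 1 replicate was left out, NEAT1 to MALAT1 was -2.53 to -1.82, MALAT1 to SFPQ -0.67 to 0.082, MALAT1 to NONO -0.37 to 0.59, MALAT1 to PSPC1 -0.12 to 0.62 and SFPQ to NONO 0.26 to 0.51. Without both libraries MALAT1 to NONO was 0.37 and SFPQ to NONO 0.51 (adjusted p = 0.048, exact permutation). Low-count genes such as RPP25 and KCNQ1OT1 rest on fewer counts than the 5 genes, and whether depth limits their values was not tested.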

Other observations

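Of 18 other long noncoding RNAs listed, 16 were in the table and 15 passed the filter. Of these, 1 was called higher, 2 lower and 12 not called, with a median log2 fold change of -0.23. The share called, 20%, was near the 23% of all genes tested. MIR22HG, the host of a microRNA, rose from 21.7 ± 7.65 to 65.2 ± 7.77 CPM (SD, n = 5 each), or by 1.59 on the log2 scale (adjusted p = 1.7e-04 by edgeR). KCNQ1OT1, an antisense RNA of an imprinted locus, fell from 3.82 ± 1.55 to 1.37 ± 0.43 CPM, with a log2 difference of -1.48 (standard error 0.31), and OIP5-AS1 fell from 100.02 ± 4.75 to 75.7 ± 8.93 CPM, with one of -0.40 (standard error 0.10), a call lost in 1 of 21 alternatives. Without DMSO replicate 1, 6 of the 15 were called, 2 of them higher, and without both doubted libraries 9 were, 3 of them higher, in fits that called 46.1% and 47.6% of all genes.

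The profiles most like SFPQ were those of NBR1, an autophagy receptor, ST13, an HSP70 co-chaperone, and MAPKAPK2, a stress kinase, with root mean square differences of 0.042 to 0.071 against a median of 0.401 over 8650 genes. NONO was most like NAP1L4, UBAP1 and FOXK2 (0.038 to 0.067, median 0.394), and PSPC1 most like NOC2L, UNC45A and SART1 (0.042 to 0.072, median 0.332). No gene stood on more than 1 of these lists.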
